A study of Caenorhabditis elegans with 2 samples.

Results

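Small nucleolar RNA (snoRNA) genes were examined for binding of REF-1, a basic helix-loop-helix protein related to the Hairy/Enhancer of split (HES) repressors, in whole Caenorhabditis elegans embryos. The genes were the 346 of biotype snoRNA on the nuclear chromosomes in Ensembl release 115 (assembly WBcel235, also called ce11), of 46890 annotated genes in all. A gene counted as bound when the summit of a deposited peak, its highest point, lay inside the gene or within 100 bp of either end. The rule that picks the genes uses the annotation and no binding value. The 2 libraries were biological replicates of 1 group. Both came from midembryos of strain RW12224 at an age of 3 hours, obtained by egg bleaching. These worms carry a CRISPR insertion on chromosome II that gives ref-1 the tag TY1::EGFP::3xFLAG. The description gives an antibody against GFP for chromatin immunoprecipitation and sequencing (ChIP-seq), after sonication to 200 to 800 bp. The antibody label names ref-1 instead, and the description was followed here. The labels give no untagged strain and no contrast between groups, and the whole embryo mixes all cell types. The depth of each library is unknown, and the intervals on shares of genes cover counting error only.

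SnoRNAs guide the chemical modification of ribosomal and other RNAs. Box C/D snoRNAs guide methylation of ribose and H/ACA snoRNAs guide pseudouridylation. In animals many of them are cut out of the introns of host genes that RNA polymerase II transcribes, while others have promoters of their own. Genes transcribed by RNA polymerase III often carry a pair of short elements, the A box and the B box, which the factor TFIIIC binds. In tRNA genes both boxes lie inside the transcribed sequence. In budding yeast a box C/D snoRNA gene has them upstream of the mature RNA. The peak lists used were the conservative set of the replicate pair, with 675 peaks, each replicate's own thresholded set, with 344 and 405 peaks, and a ranked list of 72151 candidates. Signals are those the authors deposited with each peak, in a unit they did not state.

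The sequences below show an A box and a B box on the snoRNA's own strand, upstream of its 5′ end. An exact pair starting upstream was found at 20 of 51 bound genes (39.2%) and at 2 of 295 unbound genes (0.678%). Each runs 5′ to 3′ from 100 bases upstream of the 5′ end to 20 bases into the gene, on WBcel235, and capitals mark the A box and then the B box. The first 6 had the pair and a summit. They were the strongest of that kind whose printed stretch touched no exon of a protein-coding gene. T06C12.16 and H09I01.2 had a summit and no exact pair. Y59E1B.14 had the pair and no summit. B0334.12 is shown from its annotated 3′ end on the opposite strand, where the boxes near its summit lie.
C51F7.3, chrV:12303608-12303727, forward strand: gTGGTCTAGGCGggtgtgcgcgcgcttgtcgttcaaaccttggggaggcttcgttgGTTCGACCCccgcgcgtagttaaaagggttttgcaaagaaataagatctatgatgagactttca
W03C9.9, chrII:11960798-11960917, forward strand: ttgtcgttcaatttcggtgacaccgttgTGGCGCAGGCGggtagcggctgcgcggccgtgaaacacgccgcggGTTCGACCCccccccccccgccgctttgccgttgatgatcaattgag
T03F7.8, chrV:11314158-11314277, forward strand: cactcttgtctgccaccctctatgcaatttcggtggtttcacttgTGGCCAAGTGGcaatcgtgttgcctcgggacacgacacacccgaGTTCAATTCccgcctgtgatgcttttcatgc
Y43F8C.22, chrV:19643168-19643287, reverse strand: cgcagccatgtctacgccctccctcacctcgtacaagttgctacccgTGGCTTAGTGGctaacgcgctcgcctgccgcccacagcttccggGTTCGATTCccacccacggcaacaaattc
C04G6.12, chrII:5105212-5105331, reverse strand: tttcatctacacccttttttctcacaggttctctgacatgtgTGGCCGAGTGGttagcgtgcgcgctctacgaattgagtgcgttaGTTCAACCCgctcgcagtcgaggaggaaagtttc
F32E10.10, chrIV:7574022-7574141, forward strand: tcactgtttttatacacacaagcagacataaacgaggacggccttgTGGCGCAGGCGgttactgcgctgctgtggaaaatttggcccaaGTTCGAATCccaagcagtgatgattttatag
T06C12.16, chrV:15873907-15874026, reverse strand: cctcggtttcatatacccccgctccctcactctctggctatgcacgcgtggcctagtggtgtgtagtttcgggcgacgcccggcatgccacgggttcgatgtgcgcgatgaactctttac
H09I01.2, chrIV:8252994-8253113, forward strand: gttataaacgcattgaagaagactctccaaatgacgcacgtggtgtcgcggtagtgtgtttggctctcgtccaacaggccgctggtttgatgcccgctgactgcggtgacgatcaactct
Y59E1B.14, chrX:1891409-1891528, forward strand: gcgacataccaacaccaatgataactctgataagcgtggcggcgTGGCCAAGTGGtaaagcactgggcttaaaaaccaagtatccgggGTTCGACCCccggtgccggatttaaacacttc
B0334.12 (opposite strand), chrII:11484733-11484852, reverse strand: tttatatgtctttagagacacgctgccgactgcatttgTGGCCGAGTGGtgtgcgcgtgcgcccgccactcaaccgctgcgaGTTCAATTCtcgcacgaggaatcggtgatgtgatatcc
In the first 6 the B box stands closer to the 5′ end than the A box, and in T06C12.16 a stretch with 1 mismatch to the pair stands at a similar place.

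Of the 346 snoRNA genes, 51 had a summit of the conservative set (14.7%, exact Clopper-Pearson 95% interval 11.2 to 18.9%). The share over all annotated genes was 1.79% (837 of 46890). Among other classes it was higher for tRNA genes, at 36.1% (221 of 612). It was 8.53% for snRNA genes (11 of 129), 1.6% for protein-coding genes (320 of 19973) and 0.013% for piRNA genes (2 of 15363). The searched window grows with gene length, which differs between classes, and the shares were not adjusted for it. In the replicates' own sets, 42 snoRNA genes (12.1%) were bound in replicate 1, where 1.12% of all genes were, and 48 (13.9%) in replicate 2, where 1.24% were. The own sets shared most of these snoRNA genes, but their overlap over all annotated genes was not counted, so no comparison can be made. Both held 41 genes, all of them in the conservative set, 1 gene was bound in the set of replicate 1 alone and 7 in that of replicate 2 alone. Of the 51, 5 were in 1 own set and 5 in neither. Of the snoRNA genes whose surroundings repeat elsewhere in the genome (under 80% of 36-mers found once), 0 of 28 were bound in the conservative set, which allows a share of up to 10.7%. The own set of replicate 2 and the other thresholded set held 1 of the 28, F59C6.15. Each of the 51 bound genes had at least 89.9% of 36-mers found once. The treatment of reads that map to several places is not stated.

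Position in a host gene made no detectable difference to the share bound. A snoRNA gene lying wholly inside an intron of a protein-coding gene was bound in 27 of 169 cases (16%, interval 10.8 to 22.4%). An intergenic one, touching no protein-coding gene, was bound in 18 of 124 (14.5%, 8.84 to 22%). Of the 53 that overlap a protein-coding exon, 6 were bound (11.3%, 4.27 to 23%). The odds ratio of intronic against intergenic genes was 1.12 (95% interval 0.561 to 2.28), with p = 0.87 in a two-sided Fisher's exact test (adjusted p = 0.87 over 2 tests). Genes are not replicates, so these p-values describe the 2 libraries. Among intronic snoRNA genes, 20 of 141 on the strand of the host (14.2%) and 7 of 27 on the opposite strand (25.9%) were bound. The odds ratio of host strand against opposite strand was 0.475 (0.164 to 1.5, Fisher's exact p = 0.152, adjusted p = 0.305). The 27 bound intronic genes lay in 27 different hosts. None of the 19 intronic snoRNA genes in introns of ribosomal protein genes (rpl and rps), a common home of animal snoRNAs, was bound, which allows a share of up to 15.8%, against 27 of the 150 in other hosts. This split of the hosts was chosen after the values were seen and was not tested.

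**Figure D1:**
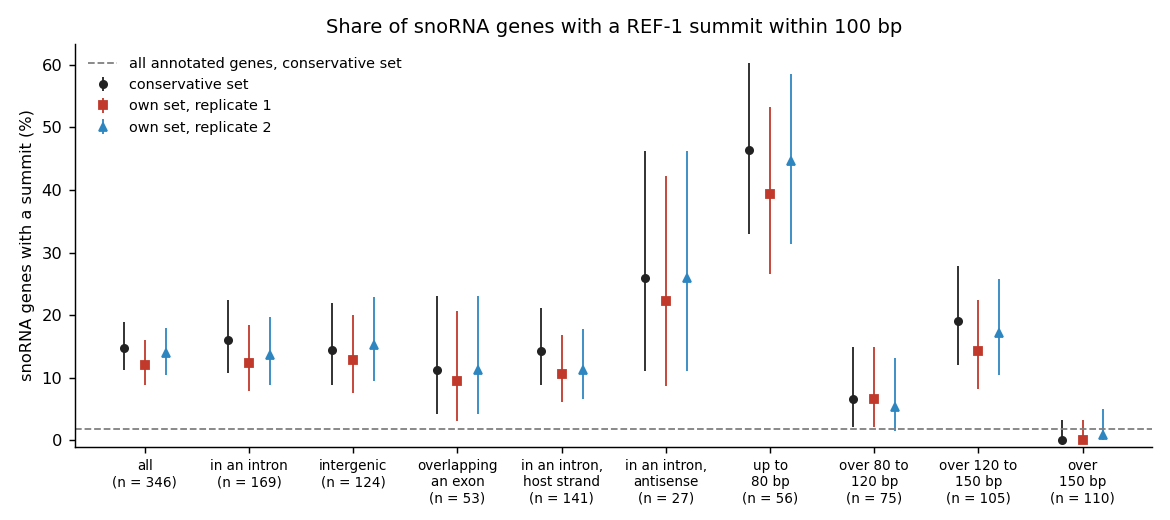
Share of snoRNA genes with a summit within 100 bp (%, vertical axis) by position, host strand and gene length, in the conservative set and in each replicate's own set, with exact 95% intervals as bars. Intronic (16%) and intergenic (14.5%) genes have overlapping intervals, genes of up to 80 bp reach 46.4%, and the dashed line marks the 1.79% of all annotated genes.

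Bound snoRNA genes were short. Their median length was 76 bp (quartiles 71 and 131), against 133 bp (106 and 171) for the 295 without a summit. Of the 56 genes of up to 80 bp, 26 were bound (46.4%, interval 33 to 60.3%). The share was 6.67% (5 of 75) over 80 and up to 120 bp and 19% (20 of 105) over 120 and up to 150 bp. Of the 110 genes over 150 bp none was bound in the conservative set, which allows a share of up to 2.73%. The own set of replicate 2 held 1 of these 110, F59C6.15. The length classes were drawn after the values were seen and were not tested. Box C/D snoRNAs carry box D, CTGA, near the 3′ end, and H/ACA snoRNAs carry ACA there. Among genes with CTGA in the last 15 bases and no ACA in the last 8, 17 of 64 were bound (26.6%). Among those with ACA and no CTGA the count was 16 of 80, and among the remaining genes, with neither or both, it was 18 of 202 (8.91%). Both kinds of end were represented among the bound genes. The annotation does not give the class of each snoRNA.

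The peaks at snoRNA genes were strong within the set. Their median signal was 261.4 (quartiles 135.7 and 341.1, 50 peaks), against 98.2 (81 and 150.4) for the other 625 peaks. Of the 20 strongest peaks in the set, 9 lay at snoRNA genes, and of the 50 strongest, 19 did. These ranks hold within the conservative set only. By signal in the ranked list, C51F7.4, which ranked 1 in the set, ranked 10, and ZK265.10, which ranked 2, ranked 22. The ranked list had 855 candidates with a score of at least 830, which every peak of the set has. Of these, 180 were not in the set, and 0 of the 180 lay at snoRNA genes. Median signals were 264.2 at 26 intronic, 258.5 at 18 intergenic and 316.8 at 6 exon-overlapping summits, and the ranges of the 3 classes overlapped.

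Among intergenic snoRNA genes, ZK265.10 (chromosome I, 8259437 to 8259498, reverse strand) had the strongest peak. Its signal was 729.7 in the pair, 323.9 in replicate 1 and 404.6 in replicate 2. T06C12.16 (V, 15873855 to 15873926, reverse strand) had 676.0 in the pair, 320.5 in replicate 1 and 348.2 in replicate 2. W03C9.9 (II, 11960898 to 11960959, forward strand) had 618.4, 284.0 and 322.5 in the same order. These 3 peaks ranked 2, 3 and 5 of the 675, and in each of them replicate 2 was the higher. H09I01.2 (IV, 8253094 to 8253165, forward strand) followed with 361.4 in the pair, 150 in replicate 1 and 207.8 in replicate 2. F32E10.10 (IV, 7574122 to 7574191, forward strand) had 300.6 in the pair, and here replicate 1 (153.7) was above replicate 2 (143.5). The weakest of the 18 was K09E9.5 on chromosome X, with 84.3 in the pair, 46.4 in replicate 1 and 38.0 in replicate 2. K09E9.5 was the only one of 33 snoRNA genes on X bound in the conservative set (3.03%, interval 0.0767 to 15.8%). In the own sets 0 of the 33 were bound in replicate 1 and 1 in replicate 2, which was C53B7.8. The share bound of all annotated genes on X was not counted.

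Among intronic snoRNA genes the strongest summit of its own belonged to T03F7.8 (V, 11314258 to 11314332, forward strand), antisense to its host, the cuticlin-like gene cutl-18. Its signal was 575.0 in the pair, 240.6 in replicate 1 and 322.1 in replicate 2. Y43F8C.22 (V, 19643050 to 19643187, reverse strand) lies in Y43F8C.7, on its strand, and had 429.9 in the pair, 202.5 in replicate 1 and 214.8 in replicate 2. ZK994.7 (V, 8500579 to 8500645, forward strand) lies in pxn-1, a peroxidasin gene, and had 418.0, 205.5 and 222.4. In each of these 3 replicate 2 was the higher. M106.6 (II, 10840317 to 10840391, forward strand) lies in mix-1, which encodes a condensin subunit, and had 406.4 in the pair, 187.7 in replicate 1 and 215.8 in replicate 2. C04G6.12 (II, 5105157 to 5105231, reverse strand) lies antisense in mpk-2, a MAP kinase gene, and had 374.4 in the pair, 189.9 in replicate 1 and 187.9 in replicate 2. F38E11.14 (IV, 9477629 to 9477699, reverse strand), in the cyclic nucleotide-gated channel gene cng-3, had 344.7, 141.1 and 188.0. The next strongest had similar values. ZK484.9, antisense in the ABC transporter gene haf-9 on chromosome I, had 330.4 in the pair, 145.7 in replicate 1 and 179.2 in replicate 2. B0334.12, antisense in the potassium channel gene twk-5, had 322.2, 135.5 and 185.0. C05D2.15, in the MADF domain gene madf-11, had 316.6, 145.2 and 170.8. Of the remaining members among the 20 strongest, C27H5.9 lies antisense in pdl-1, F55A11.10 in F55A11.6 and C10C6.8 in catp-8, a cation-transporting ATPase gene. C27H5.9 had 316.5 in the pair, 157.1 in replicate 1 and 170.1 in replicate 2. F55A11.10 had 302.2, 115.5 and 190.5. C10C6.8 had 291.4, 111.9 and 180.6. In all 3 replicate 2 was the higher, and the ratio between replicates was widest in F55A11.10 and C10C6.8.

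Among the 6 bound genes that overlap an exon, C51F7.4 (V, 12303599 to 12303693, forward strand) had the strongest peak of the whole conservative set, with a signal of 1045.3 in the pair, 506.3 in replicate 1 and 530.1 in replicate 2. It overlaps an exon of frm-7, a FERM domain gene, by 1 bp. The same peak covers C51F7.3, which lies 3′ of C51F7.4 in the intron of frm-7 on the same strand (12303708 to 12303783), so these 2 genes share 1 summit and are not independent. T27A3.9 (I, 6105679 to 6105754), antisense to T27A3.8, had 375.9 in the pair, 169.0 in replicate 1 and 205.1 in replicate 2. T02E1.9 (I, 8224474 to 8224544), antisense to spe-12, which encodes a sperm protein, had 361.7, 164.5 and 199.1.

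Across the 50 peaks the signal of replicate 2 was 1.21 times that of replicate 1 (median, quartiles 1.08 and 1.38) and was the higher at 43. Over 638 conservative peaks with a candidate in both own ranked lists the median ratio was 1.18, and replicate 2 was the higher at 482. The snoRNA genes thus shared the direction of the shift of the whole set. Signals of the 2 replicates ran together across the peaks at snoRNA genes (Pearson r = 0.94 on log2 signal, Spearman rho = 0.93, over 50 peaks from the same 2 libraries). Over the 638 peaks these values were 0.87 and 0.74. All these peaks had passed a threshold on reproducibility between the same replicates, so part of this agreement was fixed by the selection. At K02C4.8 the ratio was the largest, 2.46, with 42.0 in replicate 1 and 103.3 in replicate 2. At F11A10.9, in the RNA-binding protein gene rbm-34, replicate 1 was the higher, with 66.7 against 52.8, and the ratio was the smallest, 0.791. K02C4.8 and F11A10.9 were named after their values were seen.

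**Figure D2:**
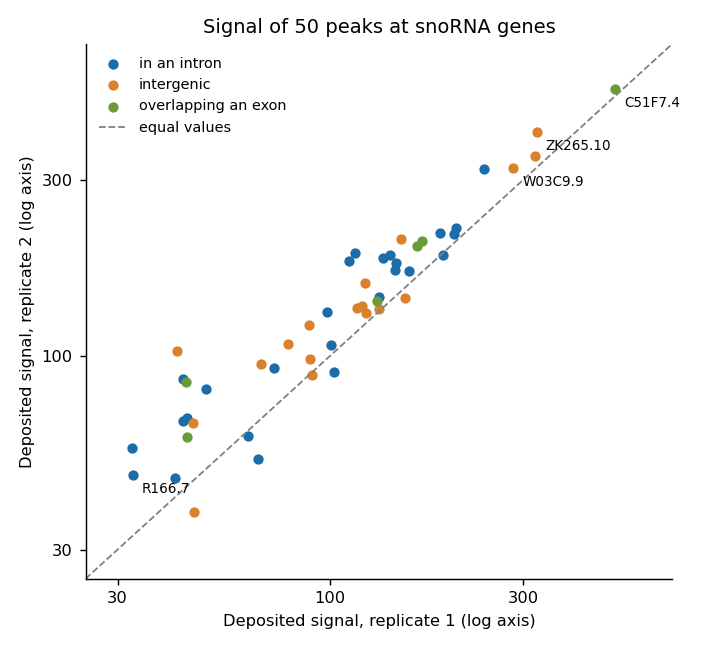
Deposited signal of replicate 1 (horizontal, log axis) and replicate 2 (vertical, log axis) for the 50 peaks at snoRNA genes, 1 point per peak, coloured by the position of the gene. The points of the 3 classes mix, 43 lie above the dashed line of equal values, and C51F7.4 stands at the upper end.

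The summits lay upstream of the snoRNA 5′ ends and close to them. Measured along the snoRNA's strand, the median position of the 50 summits was -47 bp from the 5′ end (quartiles -55.8 and -39), and 46 were upstream. From 80 to 21 bp upstream, a band chosen after the values were seen, there were 42. Intronic genes had a median of -52 bp (26 summits), intergenic genes -45.5 bp (18) and exon-overlapping genes -40.5 bp (6). In the own sets the median was -47 bp in replicate 1 and -50 bp in replicate 2. The same band held 32 of 41 summits in replicate 1 and 35 of 47 in replicate 2. Because the window reaches only 100 bp beyond the gene, the search was widened, after the values were seen. With 500 bp on each side there were 55 summits with a median of -48 bp, and the number from 80 to 21 bp upstream was again 42.

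**Figure D3:**
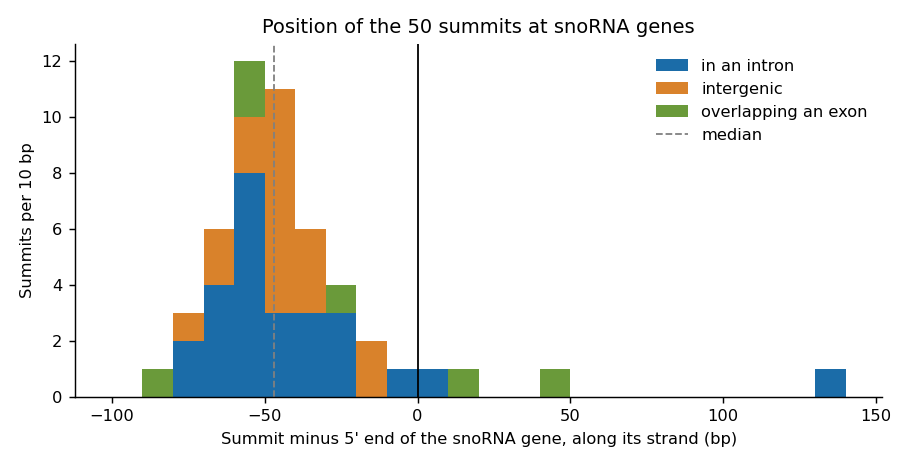
Number of summits per 10 bp (vertical axis) by distance of the summit from the 5′ end of the snoRNA gene along its strand (horizontal axis, bp, negative values upstream), stacked by the position of the gene. The bulk of the 50 summits lies around the median of -47 bp, marked by the dashed line, and 4 lie at or beyond the 5′ end, marked by the solid line.

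An A box and B box pair was found far more often at bound than at unbound snoRNA genes, though 30 of the 51 bound genes lacked it in its exact form. Both boxes were searched for on the snoRNA's own strand, up to 150 bp before and 99 bp after the 5′ end, with box starts 25 to 90 bp apart. A match describes the letters only and does not show that a factor binds there. This pair search was set up after the motif test described further on had been seen, so its p-values are not independent evidence. The pair was found at 21 of 51 bound genes (41.2%) and at 4 of 295 unbound genes (1.36%). The odds ratio of 49.7 had a 95% interval of 15.4 to 212 (Fisher's exact p = 4.53e-16, adjusted p = 5.44e-16 over 6 box searches). It was 24.5 without replicate 1 and 31.1 without replicate 2, with genes split by the remaining replicate's own set. Read the other way, 21 of the 25 snoRNA genes with the pair were bound (84%, interval 63.9 to 95.5%), against 30 of 321 without it (9.35%). With 1 mismatch allowed over both boxes, the pair stood at 40 bound genes (78.4%) and 19 unbound genes (6.44%), an odds ratio of 51.4 with an interval of 21.9 to 130 (Fisher's exact p = 7.71e-28, adjusted p = 4.62e-27). In the same windows an exact pair was present at 0.125% of protein-coding genes, 1.53% of miRNA genes, 0 of 129 snRNA genes and 92% of tRNA genes. With 1 mismatch those shares were 2.04% for protein-coding and 98.5% for tRNA genes. Outside the snoRNA genes the exact pair went with a summit less often. Of the genes that held it, 209 of 563 tRNA genes (37.1%), 3 of 25 protein-coding genes (12%) and 0 of 4 miRNA genes were bound. Since nearly all tRNA genes hold the pair, their 37.1% is close to the 36.1% bound among all tRNA genes. How many tRNA genes have repeated surroundings was not counted, so their share may not be comparable with that of snoRNA genes. The A box taken alone was found upstream of 34 bound (66.7%) and 19 unbound snoRNA genes (6.44%). The B box alone was found upstream of 23 (45.1%) and 12 (4.07%).

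In each position class of snoRNA genes most genes with the pair were bound. Of the intronic snoRNA genes with the pair, 11 of 13 were bound, of the intergenic ones 7 of 9 and of the exon-overlapping ones 3 of 3. Without the pair the bound shares were 10.3% of intronic, 9.57% of intergenic and 6% of exon-overlapping genes. The median signal was 261.4 at bound genes with the pair and 264.8 at those without it.

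The boxes held a nearly fixed place. At the 20 genes with both the pair and a summit assigned to them, the A box started at a median of -58.5 bp from the 5′ end (quartiles -61.2 and -55.8) and the B box at -14 bp (-16.2 and -11.8). The starts of the boxes were 44 bp apart in the median, with quartiles of 44 and 45. At bound tRNA genes the same distance was also 44 bp (quartiles 44 and 45, 206 summits), but there the A box started 7 bp inside the gene. Where a snoRNA window held several pairs, the one with a spacing nearest 45 bp, the median over tRNA genes, was kept. The snoRNA and tRNA distances are therefore not fully independent. The summit lay 8 bp after the start of the A box at snoRNA genes (quartiles 5 and 12) and 12 bp after it at tRNA genes (2 and 26.8). Relative to the 5′ ends the positions differ, with -51.5 bp at these snoRNA genes and 20 bp at these tRNA genes. At 11 of the 20 snoRNA genes the summit fell inside the A box itself, and at 18 it fell between the start of the A box and the end of the B box. Fragments of 200 to 800 bp limit how finely a summit can be placed. The distances to the boxes were not measured from each replicate's own summits. T10B9.11 and Y75B12B.12 had their summits at the B box, and F11A10.9 and R166.7 upstream of both boxes. These 4 were named after their values were seen. A peak that covered several tRNA genes was given to the nearest 5′ end.

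**Figure D4:**
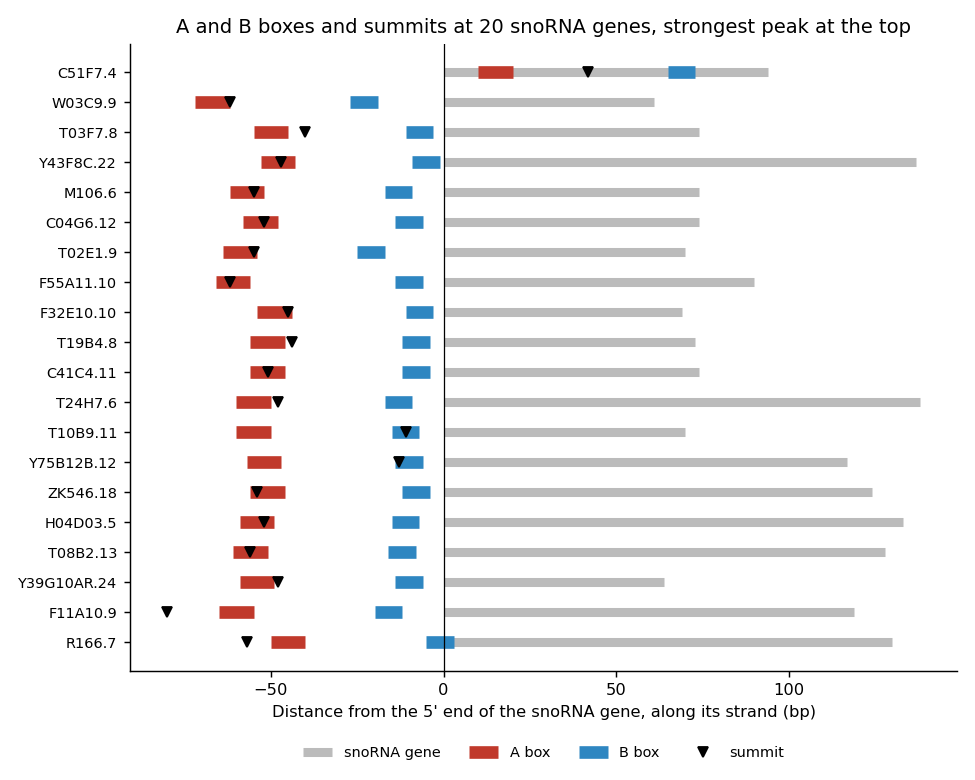
Positions of the A box (red), the B box (blue), the summit (triangle) and the snoRNA gene (grey bar) relative to the 5′ end along the gene's strand (horizontal axis, bp), for the 20 bound genes with an exact pair, 1 line per gene ordered by signal. The boxes line up upstream of the gene in every line except those of C51F7.4, where both lie inside it, and R166.7, where the B box reaches across the 5′ end.

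The summits that were not upstream had particulars of their own. At C51F7.4 the summit was 42 bp inside the gene, and its A box started at 10 and its B box at 65 bp, also inside. The same boxes stand upstream of C51F7.3, with the A box starting at -99 and the B box at -44 bp from its 5′ end, as printed above. At B0334.12 the summit was 132 bp downstream of the 5′ end, beyond the 3′ end. On the opposite strand the pair was present there, the A box starting at -62 and the B box at -18 bp from the annotated 3′ end, and the summit lay at -63 bp. B0334.12 was the 1 snoRNA gene of 346 with the pair on the opposite strand. Whether its annotated strand is right was not tested. ZK994.7 had its summit 6 bp and C14C10.8 11 bp inside the gene, and neither had the pair even with 1 mismatch. Of the 51 bound genes, 11 had no such pair, among them ZK265.10, the second strongest.

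Of the 4 unbound genes with the pair, 2 had it inside the gene and 2 had repeated surroundings. C33E10.11 had both features and Y59E1B.14 had neither. At Y77E11A.21 and C33E10.11 the A box starts 19 and 10 bp inside the gene, and at C33E10.11 68.5% of 36-mers are found once. At Y6B3B.15 it starts at -76 bp, but only 16.5% of its 36-mers are found once in the genome. Y59E1B.14 on chromosome X, printed above, has the A box at -56 and the B box at -12 bp and fully unique 36-mers, and no candidate of the ranked list lay at it. These genes were named because they were the only 4.

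A fixed list of 14 motifs was tested in the 100 bp on either side of the 5′ end, on both strands, and 5 (35.7%) differed between bound and unbound genes (Fisher's exact test, Benjamini-Hochberg over the 14). The B box GTTCNANNC was present at 29 of 51 bound (56.9%) and 28 of 295 unbound genes (9.49%), an odds ratio of 12.4 with an interval of 6.03 to 26.1 (Fisher's exact adjusted p = 2.97e-12). Its core GTTCGA was present at 43.1% and 6.44% (Fisher's exact adjusted p = 1.43e-09), and the A box core TGGCNNAG at 45.1% and 9.83% (adjusted p = 5.12e-08). GTTCGA can be part of GTTCNANNC. The same windows held GTTCNANNC at 6.17% of protein-coding and 95.1% of tRNA genes, and TGGCNNAG at 5.06% and 20.9%.

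Motifs that HES-type proteins are known to bind gave smaller differences. The degenerate HES site CACGNG was present at 20 bound (39.2%) and 57 unbound genes (19.3%), with an odds ratio of 2.68 and an interval of 1.35 to 5.28 (Fisher's exact adjusted p = 0.0108), and at 14% of protein-coding genes. The N-box CACNAG was present at 24 (47.1%) and 76 (25.8%), with an odds ratio of 2.55 and an interval of 1.32 to 4.91 (Fisher's exact adjusted p = 0.0111). This call was lost without replicate 1 (adjusted p = 0.0609), without replicate 2 (0.104) and when the IDR limit was tightened to 0.001 (0.0931), by the same exact test. Occurrences of these motifs partly coincide with the boxes, since some A boxes hold the N-box on the other strand. Counting only occurrences that overlap no A or B box, a count added after the values were seen and not tested, CACNAG stood at 27.5% of bound and 25.1% of unbound genes, and CACGNG at 29.4% and 19%. The class C site CACGCG, of which CACGNG is the looser form, was present at 6 and 12 genes (11.8% and 4.07%, Fisher's exact adjusted p = 0.0809) and the E-box CACGTG at 2 and 10 (adjusted p = 0.746). Box C, TGATGA, was present at 23.5% of bound and 23.7% of unbound genes (Fisher's exact adjusted p = 1), which did not pass the test. Box D, CTGA, stood at 84.3% and 76.3%, but it is too short to separate windows of this size, since 82.1% of protein-coding genes held it as well, and its place near the 3′ end falls outside the window in longer genes.

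Of all 2080 6-mers, 62 (2.98%) differed at an adjusted p under 0.05, 54 of them more frequent at bound genes. The number was 33 without replicate 1 and 20 without replicate 2. GTTCGA came first (Fisher's exact adjusted p = 4.25e-07), followed by GGCGCA (37.3% of bound and 6.78% of unbound genes, adjusted p = 5.39e-05) and ACTGCG (33.3% and 5.42%, adjusted p = 8.12e-05). Less frequent at bound genes was, for example, AAAAAT (23.5% and 53.6%, Fisher's exact adjusted p = 0.00824). The 100 bp upstream of bound genes were richer in G and C, with a median of 55% against 42%. The part of base composition in the motif and 6-mer differences was not tested.

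**Figure D5:**
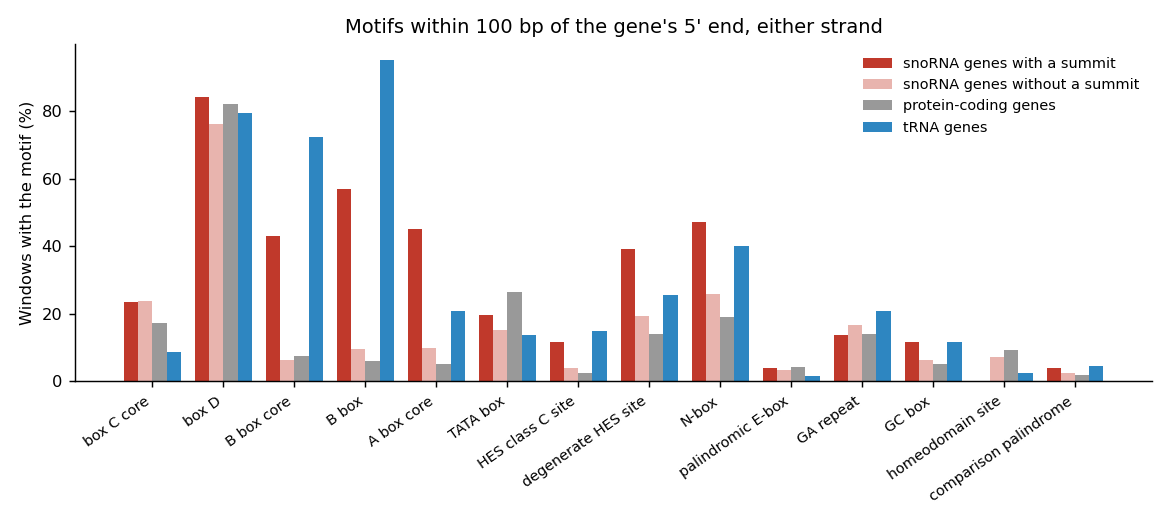
Share of windows of 100 bp on either side of the 5′ end that hold each motif on either strand (vertical axis, %), for snoRNA genes with (51) and without (295) a summit, protein-coding genes and tRNA genes. The B box stands at 56.9% of bound and 9.49% of unbound snoRNA genes, while box C stands at 23.5% and 23.7%.

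Bound intronic snoRNA genes had room upstream in their introns. For the 20 on the strand of their host, the 5′ end lay a median of 146 bp from the exon upstream (quartiles 108 and 190, lowest value 68). For the 121 unbound ones it lay 103 bp away (33 and 634, lowest value 6). The introns were 289 bp long in the median (quartiles 269 and 385) with a bound snoRNA gene and 395 bp (229 and 1599) with an unbound one. These distances were not tested. No bound snoRNA gene lay within 300 bp of a tRNA or snRNA gene, and only 1 of the 346 did.

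The ranked list is not cut at the score threshold, but it does not hold every candidate of the replicates' own ranked lists. At T07D4.7, named after its values were seen, the own lists had candidates (26.8 in replicate 1, 33.5 in replicate 2) and the ranked list none. In the ranked list 162 of 346 snoRNA genes (46.8%) had a candidate within 100 bp, and 42.0% of all annotated genes had one. The window spans the whole gene, so its length differs between gene classes, and these shares cannot be compared directly. Shares past the threshold were therefore taken over candidates. Of the 171 candidates at snoRNA genes 50 were in the conservative set (29.2%), against 0.936% of all 72151 candidates. Candidates at snoRNA genes outside the set had a median signal of 33.3, near the 28.5 of the whole list, and their summits were spread along the genes, with a median position of 65 bp (quartiles -28 and 141). Of these 121, 27 lay from 80 to 21 bp upstream.

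Every peak of the conservative set has a score of at least 830. The lowest scores inside that set at snoRNA genes were those of R166.7 (score 934, signal 74.1), in the kinase gene mnk-1, R12E2.17 (score 964, signal 94.8), in the proteasome subunit gene rpn-8, and K09E9.5 (score 983). The highest outside it were those of F19H8.6 (score 787, signal 75.6), in mltn-9, and C17D12.8 (score 781, signal 68.3), in pcmd-1. The other thresholded set of the pair holds F19H8.6 and C17D12.8 and lacks R166.7. The strongest candidate at a snoRNA gene outside the conservative set was that of F59C6.15 (chromosome I, intergenic), with a signal of 123.1, of which replicate 1 had 27.9 and replicate 2 had 92.0. Y53F4B.47 (II, intergenic) followed with 86.6 in the pair, 27.6 in replicate 1 and 62.0 in replicate 2. F59C6.15, Y53F4B.47 and C53B7.8 (X, intergenic, 71.4 in the pair, 27.4 in replicate 1 and 53.8 in replicate 2) were in the own set of replicate 2, and F59C6.15 and Y53F4B.47 were also in the other thresholded set. In all 3 replicate 2 was the higher. K02F6.11 (II, intergenic) had 72.6 in the pair, 35.7 in replicate 1 and 31.6 in replicate 2 and was in neither own set.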

How the data were processed

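ChIP-seq peaks of REF-1 were read from lists that the authors deposited on ce11. No source used here names the aligner or the peak caller. The deposited score comes from the irreproducible discovery rate (IDR), and the authors' thresholded sets hold peaks with a score of at least 830. The deposited signal, of unstated scale, served to order peaks inside each list. The −log10 of the global IDR in the deposited ranked list served for a stricter threshold. The 2 inputs of the ranked list were each matched to 1 replicate by identical entries in the replicates' own lists (39887 and 39929 entries, with 0 matches to the other replicate). A sample's own values come from its own list.

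Genes came from Ensembl release 115 and sequence from the RefSeq copy of WBcel235. A summit within several extended genes went to the nearest 5′ end. Shares have exact Clopper-Pearson 95% intervals, and 2 by 2 counts were tested by two-sided Fisher's exact test with Benjamini-Hochberg adjustment (Python 3.11.15, SciPy 1.17.1). The code was tested on simulated data. Limits on a count of 0 use 3 counts. Genes were named by rule: the 20 with the strongest peaks, the strongest 3 of each class, the 5 strongest outside the set, and their hosts. Others are said to be named after their values were seen. The members, lists and tests were chosen with earlier results of these data known.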

Additional observations from a re-analysis of the deposited data

How the results depend on the processing

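The count of 51 bound snoRNA genes stayed within 1.5 times under 11 of 13 alternatives. It was 3 with no extension of the gene and 27 with 50 bp, since the median summit lies at -47 bp. Without replicate 1 or without replicate 2 it was 48 and 42. The median summit position was -39 bp with 50 bp of extension and, for the 3 summits then left, 11 bp with none. It ranged from -50 to -47 bp with 1 replicate left out. The odds ratio of intronic against intergenic genes passed the test under none of its alternatives. It has no value without extension, where no intergenic gene was left with a summit. Its direction turned to 0.975 at a global IDR of at most 0.001, to 0.596 with 50 bp of extension and to 0.966 with hosts on the same strand only, and it was 0.871 and 0.958 with 1 replicate left out.

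Of 14 motifs, 5 passed, against 3 in windows of 50 bp and 0 in the gene body alone, where GTTCNANNC (odds ratio 0.562), CACGNG (0.676) and CACNAG (0.67) turned. Leaving out a replicate gave 4 to 5. CACNAG lost its call under 5 of 8 alternatives, both replicates left out in turn among them, with adjusted p from 0.00776 to 0.731. The number of 6-mers fell from 62 to 19 at the stricter IDR, 34 in windows of 50 bp, 14 in the gene body, and 20 to 33 with 1 replicate left out. The median signal at snoRNA genes was 2.66 times that of the other peaks, 2.56 in the other thresholded set and 1.84 to 1.91 in the own sets. Candidates of the ranked list lay at 52 genes without extension, against 162. The odds ratio of the A and B box pair was between 18.2 and 90.2 under its 8 alternatives, all chosen after seeing the data, and passed the test in each. No paired analysis was possible because the labels give only 1 group. Read depth is unknown, so it cannot be said which unbound genes deeper libraries would call.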
